A study of Drosophila melanogaster with 3 samples.

Results

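Distal intronic Pdp1 summits in long genes were taken from the optimal peak list of a Drosophila melanogaster embryo ChIP-seq series, which held 13583 lines, each with a summit of its own. A summit was kept when it lay farther than 1 kb from every transcription start site (TSS) of a protein-coding gene, in no exon, and inside an intron of a protein-coding gene of 50 kb or longer, with the longest gene taken as host where several overlapped. This rule kept 1366 summits, 10.1% of the list, in 197 host genes. Of the other summits, 3066 lay in introns of shorter genes under the same rule, 6919 within 1 kb of a TSS, 734 in exons and 1498 outside protein-coding genes. The series held 1 group and no second condition. It consisted of whole embryos of mixed sex, aged 0 to 24 h, from a single transgenic fly line stably expressing Pdp1 with eGFP, a fluorescent tag, at the C-terminal end. Chromatin was sonicated to fragments of 200 to 800 bp and precipitated with an antibody to GFP, in 3 biological replicates of 1 technical replicate each. A sample of whole embryos mixes all cell types and stages, so the lists do not say in which cells a site was occupied. With no read counts in the lists the depth was unknown, and they hold no expression, so the tissue could not be checked against marker genes.

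Pdp1 belongs to the PAR bZIP transcription factors, which bind DNA as dimers through a basic region beside a leucine zipper. In flies it is known to activate Clk in the daily clock and to act in muscle, fat body and growth. Long introns of Drosophila genes that encode regulators of development are known to hold many enhancers, often far from the promoter they act on. The lists measure where the tagged protein was precipitated and not whether a site acts as an enhancer.

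The strongest of these summits differed in whether they held a recognisable bZIP word. The sequences below are the 101 bases around 8 of the 20 strongest summits found in all 3 replicates, that is within 200 bp of a summit among the 13583 strongest lines of each. They are followed by the strongest summit of kirre and of rdx, which were added after their values were seen because each holds the PAR bZIP site. That site was searched on both strands as TTACGTAA or TTATGTAA, which reads TTACATAA on the other strand. A wider bZIP form was searched on both strands as TTACATAA, TTATATAA, TTATGCAA, TTACGCAA, TTACGTAA, TTGCACAA, TTATACAA, TTACACAA, TTGCGCAA or TTGTACAA, so it contains the PAR site and the C/EBP word TTGCGCAA. Capitals mark words of the wider form. The sequences are the + strand of the Release 6 genome from RefSeq, read 5′ to 3′ with the summit at the central base.
ush at chr2L:481000-481100: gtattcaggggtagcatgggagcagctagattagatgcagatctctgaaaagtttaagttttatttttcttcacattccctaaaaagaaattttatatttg
Tlk at chrX:3742156-3742256: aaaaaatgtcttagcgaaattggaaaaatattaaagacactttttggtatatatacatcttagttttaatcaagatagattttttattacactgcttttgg
CG44153 at chr2L:10143419-10143519: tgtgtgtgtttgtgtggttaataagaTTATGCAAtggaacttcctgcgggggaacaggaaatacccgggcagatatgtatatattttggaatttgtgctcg
Pdp1 at chr3L:7851200-7851300: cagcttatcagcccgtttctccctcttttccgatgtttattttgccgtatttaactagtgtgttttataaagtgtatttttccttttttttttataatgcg
CG1677 at chrX:7336167-7336267: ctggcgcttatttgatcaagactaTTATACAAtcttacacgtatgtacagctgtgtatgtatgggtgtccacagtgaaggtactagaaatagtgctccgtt
ush at chr2L:520654-520754: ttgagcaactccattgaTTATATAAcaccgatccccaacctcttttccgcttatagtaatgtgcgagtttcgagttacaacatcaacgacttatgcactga
Pdp1 at chr3L:7842687-7842787: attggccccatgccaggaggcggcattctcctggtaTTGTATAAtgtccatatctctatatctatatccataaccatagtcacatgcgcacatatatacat
Tlk at chrX:3744769-3744869: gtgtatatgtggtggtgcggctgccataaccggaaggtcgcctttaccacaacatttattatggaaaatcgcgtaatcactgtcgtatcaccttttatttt
kirre at chrX:2792048-2792148: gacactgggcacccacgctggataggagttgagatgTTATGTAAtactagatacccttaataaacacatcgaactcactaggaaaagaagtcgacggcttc
rdx at chr3R:13992435-13992535: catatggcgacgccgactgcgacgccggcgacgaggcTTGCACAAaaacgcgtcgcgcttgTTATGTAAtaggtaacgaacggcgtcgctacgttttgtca

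Of the printed sites, the strongest, in ush, and those of Tlk have no wider-form word, those of CG44153 and CG1677 hold TTATGCAA and TTATACAA, and those of kirre and rdx hold TTATGTAA. A match is a description of these letters, not proof of a binding site, and no match says only that the letters are not in the window. Over all 20 strongest summits, which had optimal signals from 1418 to 6375 and lay in 16 genes, 10 held a wider-form word within 50 bp, against 35.8% of all summits in the optimal list. The share was 44.7% over the 1366 summits kept by the rule, and 56.9% in the strongest of 5 equal groups of them by signal. The signal is the value the authors deposited for each peak. Its scale differs between lists, so it serves to rank peaks within a list.

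The member of highest signal lay in the intron nearest the 5′ end of ush, which encodes U-shaped, a FOG-family partner of GATA factors. The peak spans chr2L:480454-481421 with its summit at 481050, 1362 bp from a TSS of the neighbouring gene cbt and 4830 bp from the nearest TSS of ush. It ranked 7 in the optimal list with a signal of 6375, and 14, 4 and 5 in the lists of replicates 1, 2 and 3, with signals of 3068, 2198 and 1166. It stood near the top of every list. A further ush summit at 520704 had an optimal signal of 2301 and held TTATATAA. Its ranks of 123, 626 and 278 in the 3 replicates were spread more widely.

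The next members by signal lay in Tlk, CG44153, Pdp1 and CG1677. In Tlk, which encodes the Tousled-like kinase, the summits at chrX:3742206 and chrX:3744819 had optimal signals of 2521 and 2029, in the same intron. The stronger ranked 347, 67 and 119 in replicates 1, 2 and 3, higher in replicates 2 and 3 than in replicate 1. The CG44153 summit at chr2L:10143469 had a signal of 2475 and ranked 160, 228 and 200, and the CG1677 summit at chrX:7336217 had a signal of 2348 and ranked 225, 186 and 208. These ranks were close in all 3 replicates. In both cases the nearest TSS was that of a neighbour, CG4839 at 1307 bp and CBP at 1135 bp, and the nearest TSS of the host was 36787 and 50022 bp away. Among the 20 strongest, 6 had a TSS of a gene other than the host as the nearest. Such neighbours included Adh, which encodes alcohol dehydrogenase, 3954 bp from the osp summit of signal 1730, and aos, which encodes the secreted EGF receptor inhibitor Argos, 3085 bp from the CG33158 summit of signal 1615.

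Genes of transcription factors and their partners were among the rest of the 20 strongest. Smr, which encodes a corepressor of nuclear receptors, had a summit of signal 1925 that ranked 240, 643 and 442 in replicates 1, 2 and 3. EcR, the ecdysone receptor gene, had a summit of signal 1787 at ranks 469, 322 and 350. The chinmo summit, in a gene for a BTB zinc finger protein of neuronal timing, had a signal of 1671 and ranked 282, 1971 and 419, so replicate 2 placed it far lower than the others. SNF4Agamma, which encodes the regulatory gamma subunit of AMP-activated kinase, had a summit of signal 1613 at ranks 333, 1203 and 582. The nuclear receptor genes ftz-f1 and Hr4 had summits of signal 1560 and 1474. Those of px, lilli, which encodes an AF4/FMR2-family protein, and shn, which encodes a zinc finger repressor of the Dpp pathway, had signals of 1445, 1422 and 1418, and the shn summit held TTACGTAA. The shn summit ranked 423, 2981 and 490 in replicates 1, 2 and 3, and its place in replicate 2 was the lowest of the 20 in any list.

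Members were spread unevenly over the long genes. Of 307 protein-coding genes of 50 kb or longer, 197 held a member, 64.2%, and 110 held none. In the lists of replicates 1, 2 and 3, each limited to its 13583 strongest lines, 215, 219 and 183 long genes held such a summit (206 ± 19.7, SD, n = 3), and 174 held one in all 3. A single member was found in 31 genes and 10 or more in 50 genes. The 10 genes with most held 243 members, 17.8% of all, in 3.75% of the intron sequence in which the rule can place a summit, called eligible here. The 40 genes with most held at least 50% of the members in 12.6% of the eligible sequence. The amount of eligible sequence did not order the genes: Spearman's correlation across the 300 genes with any was −0.01 between eligible kb and members, and 0.04, 0.00 and −0.02 in the 3 replicates. Across the same genes, which are not independent replicates, members per 100 kb had a Spearman's correlation of 0.37 with the number of annotated TSSs. Counts per gene were alike between replicates, with Spearman's correlations of 0.88 for replicates 1 and 2, 0.92 for 1 and 3 and 0.92 for 2 and 3.

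**Figure D1:**
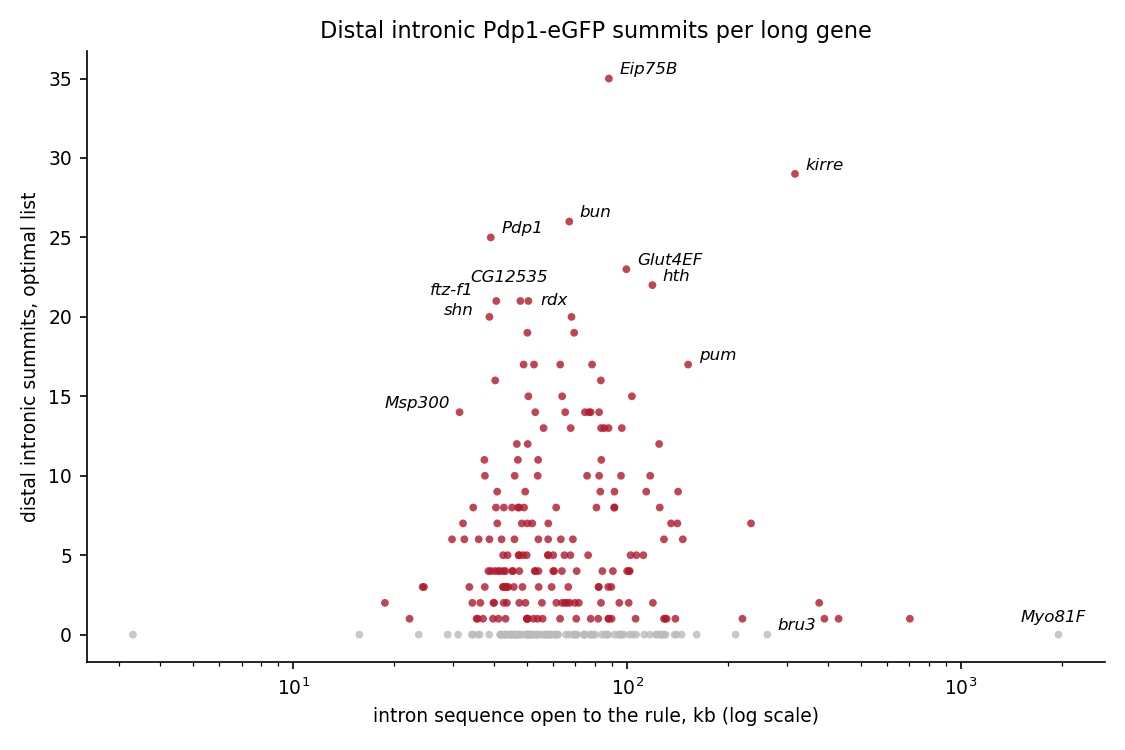
Each point is a long gene, with the kb of intron open to the rule on a log x axis and the number of distal intronic summits of the optimal list on the y axis; red points hold at least 1 summit and grey points none. Eip75B holds 35 summits in 88.1 kb and kirre 29 in 318 kb, whereas Myo81F holds none in 1957 kb.

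Eip75B held the most members. It encodes a haem-binding nuclear receptor induced by ecdysone, the steroid hormone of insect moulting, and spans chr3L:17950953-18064696 on the minus strand with 7 annotated TSSs. It held 35 members, against 37, 31 and 29 summits in replicates 1, 2 and 3. Of these 35, 24 were found in all 3 replicates, against 60.6% of all optimal summits. The wider form was at 17 and the PAR site at 5, against 35.8% and 12.0% of all summits and 44.7% and 15.5% of all members. Their signals ran from 159.7 to 1411 with a median of 504, above the median of 305 over all members. They lay between 17.5 and 106 kb from the 5′ end of the gene, 7 of them in its 5′ 50 kb. The strongest, at 17968768, was 2671 bp from an Eip75B TSS and ranked 529, 1388 and 495 in replicates 1, 2 and 3. The weakest, at 17984283, was among the 13583 strongest lines of replicate 1 alone.

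**Figure D2:**
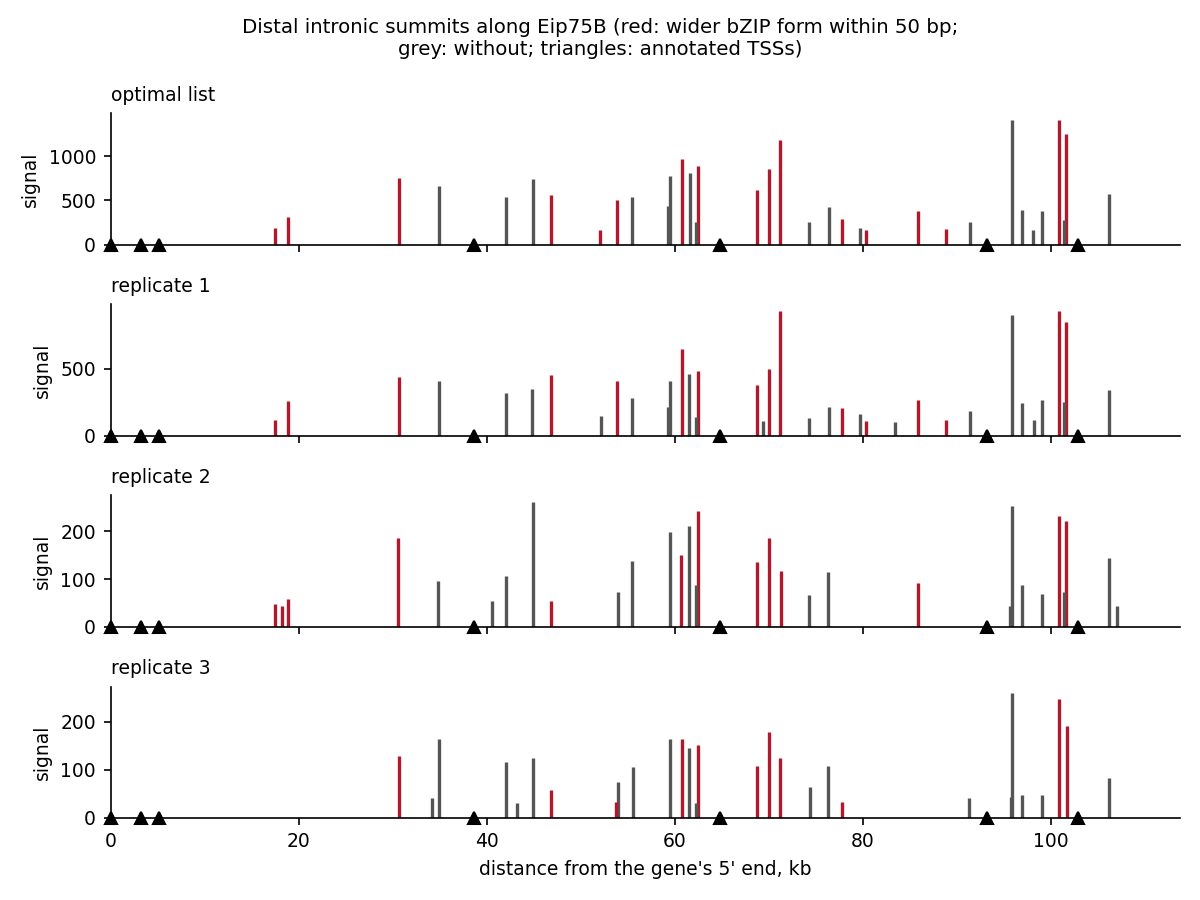
Vertical lines are the distal intronic summits along Eip75B, by distance from the gene's 5′ end in kb and by the authors' signal, in the optimal list (35 summits) and in the lists of replicates 1, 2 and 3 (37, 31 and 29), each on its own scale; red lines have the wider bZIP form within 50 bp, grey lines do not, and triangles are annotated TSSs. The groups of strong summits near 60, 70 and 100 kb recur in every list.

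The gene with the second highest number was kirre, which encodes an immunoglobulin adhesion protein of muscle founder cells. It held 29 members, against 27, 35 and 19 summits in replicates 1, 2 and 3, in 318 kb of eligible intron. Replicate 3 was the lowest for this gene and replicate 2 the highest. The strongest kirre summit, at chrX:2792098, had a signal of 1083, held the PAR site and was 1531 bp from a TSS of CG32795. The gene bun, of the TSC-22 family, held 26 members, against 27, 20 and 24 summits in replicates 1, 2 and 3. Its counts kept within 4 of their mean of 23.7 (SD 3.51).

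Pdp1 itself held 25 members, against 20, 26 and 23 summits in the 3 replicates, and was the densest of the long genes with 5 or more members, at 64.0 per 100 kb of eligible intron. Its strongest member, at chr3L:7851250, had a signal of 2391 and ranked 159, 274 and 144 in replicates 1, 2 and 3. Of its 25 members 16 were found in all 3 replicates, 9 had the wider form and 3 the PAR site, against shares of 60.6%, 35.8% and 12.0% over all summits, so these counts were near the background. Pdp1 is the tagged gene, and the extent of the transgene is not given in the sources used here, so its part in these signals was not tested. The next in density were ftz-f1 with 51.8 members per 100 kb, shn with 51.7, Msp300 with 44.5 and CG12535 with 43.9, against 5.63 over all long genes together. Msp300, which encodes a nesprin that anchors nuclei in muscle, held 14 members in 31.5 kb, against 14, 9 and 11 summits in the 3 replicates.

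Glut4EF held 23 members, against 26, 18 and 19 in replicates 1, 2 and 3, and all 23 also lay within the span of the overlapping gene CG46467. The gene hth, which encodes the homeodomain partner of Extradenticle, held 22, against 20, 26 and 18. In ftz-f1, whose nuclear receptor acts with Ftz in segmentation and later in the ecdysone response, 21 members stood against 20, 23 and 16. The gene rdx encodes an adaptor of a Cullin ubiquitin ligase in the Hedgehog pathway and held 21, against 19, 20 and 20. CG12535, for which no role is given here, held 21, against 19, 19 and 17. In shn there were 20 members, against 19, 21 and 20. The replicate counts of rdx, CG12535 and shn had SDs of 0.577, 1.15 and 1.0, the narrowest of the 10 genes. For the others the SD ran from 3.00 in Pdp1 to 8.0 in kirre.

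Genes of the ecdysone response held members at the highest density of the gene lists with more than 1 long gene. Of 26 genes of ecdysone signalling and nuclear receptors, 8 were long genes. Of these 8, 6 held a member, against 64.2% of all long genes. They held 114 members, and the list had 276 per Mb, against 56.3 per Mb over all long genes. In replicates 1, 2 and 3 the density was 281, 259 and 242 per Mb (261 ± 19.4, SD, n = 3), against 57.7, 54.5 and 50.7 (54.3 ± 3.51) over all long genes. Besides Eip75B and ftz-f1, Hr4 held 19 members, against 22, 17 and 19 summits in the replicates. The gene tai encodes Taiman, a coactivator of the ecdysone receptor, and held 19, against 19, 17 and 16. EcR held 15, against 14, 11 and 13. Eip74EF, which encodes an ETS-domain factor induced by ecdysone, held 5, against 4, 7 and 7. No member lay in Eip93F, where replicate 2 had 1 summit. The Broad gene br lies whole within the longer gene Mur2B, and no member fell in its span. Of the 114 members, 76 were found in all 3 replicates, 66.7%, against 60.6% of all optimal summits and 53.4% of all members. The share was also 66.7% (68 of 102) in the list of patterning and cell fate factors.

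All 13 long genes of the signalling list held a member, against 64.2% of all long genes. Together they held 125, or 133 per Mb, against 56.3 per Mb over all long genes. In replicates 1, 2 and 3 the density was 125, 111 and 116 per Mb. The highest count was in sima, which encodes the fly HIF-alpha factor of the hypoxia response, with 17 members against 16, 13 and 16 summits in the replicates. The Wnt receptor genes fz2 and fz held 14 and 13, against 13, 16 and 13 for fz2 and 14, 12 and 14 for fz.

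Among transcription factors of patterning and cell fate, 15 of 16 long genes (93.8%) held 102 members, or 94.4 per Mb. Over all long genes the values were 64.2% and 56.3 per Mb. In the 3 replicates the list had 94.4, 115 and 92.6 per Mb. After hth, ush held 17, against 16, 18 and 17 summits, and pnt, an ETS factor of EGF receptor signalling, held 11, against 9, 14 and 11. The Hox gene Antp held 8, against 11, 8 and 7, of which 6 also lay in the span of the overlapping gene CG46458. The exception was pros, with no summit in its 43.1 kb of eligible intron in any list. Of the 102 members 6.86% had the PAR site, the lowest share of the lists with more than 10 members, against 15.5% of all members.

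Of 11 long genes of muscle and attachment, 8 held a member (72.7%), against 64.2% of all long genes. They held 68 members, or 98.6 per Mb, with 98.6, 98.6 and 76.8 per Mb in replicates 1, 2 and 3, and kirre held 29 of the 68. After kirre and Msp300, rols, which acts in myoblast fusion, held 7, against 7, 8 and 7, and trol, which encodes perlecan, held 7, against 7, 6 and 6. The titin-like gene sls, with 15.8 kb of eligible intron, and sns, which encodes the adhesion partner of Kirre on fusing myoblasts, held no summit in any list. Ank2 lay whole within a longer gene, CG32373, and had none in its span.

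In the circadian clock and sleep list 5 of 8 long genes (62.5%, against 64.2% of all long genes) held 65 members, and Pdp1 contributed 25 of them. The density was 103 per Mb, with 103, 90.0 and 91.5 in the replicates, against 56.3 over all long genes. Also named were nmo, which encodes a kinase and held 13, against 13, 10 and 10, and mbl, a splicing factor gene with 7, against 10, 5 and 8. The 3 long genes of cuticle and tracheal barrier all held members, against 64.2% of all long genes, and 3 genes are few. These were pyd, the fly ZO-1 gene, with 9, sdt, a gene of apical polarity, with 8, and dpy, which encodes a giant protein of the apical matrix, with 5. The density was 118 per Mb, with 124, 107 and 118 in the replicates, against 56.3 over all long genes. Of 12 long RNA-binding and splicing genes 8 (66.7%, against 64.2% of all long genes) held 60 members, or 43.2 per Mb, against 56.3 over all long genes. In replicates 1, 2 and 3 this list had 51.1, 43.2 and 37.4 per Mb, against 57.7, 54.5 and 50.7 over all long genes. The translational repressor gene pum held 17, against 16, 19 and 16, Rbfox1 10, against 11, 6 and 8, and heph, the fly PTB gene, 9, against 11, 9 and 6. No member lay in bru3, which had 2 summits in replicate 1, or in Rbp6, which had 2 in replicate 1 and 3 in replicate 2. Of 49 symbols of lipid, insulin and metabolism 46 matched a gene and none of these was long, and the single long bZIP gene was Pdp1.

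The long neuronal genes held members at a lower density than long genes as a whole. Of 38 long genes of neuronal adhesion and axon guidance 21 (55.3%) held a member, against 64.2% of all long genes. They held 88 members, and the list had 27.4 per Mb over 3.21 Mb, with 29.6, 29.9 and 28.0 in replicates 1, 2 and 3. After fz, the Semaphorin gene Sema1a held 10, against 10, 9 and 11 summits, the leucine-rich repeat gene caps 8, against 6, 7 and 10, and the teneurin gene Ten-a 7, against 8, 10 and 7. The N-cadherin gene CadN held no summit in any list in 112 kb, and Lar, a receptor tyrosine phosphatase gene, had 1 in replicate 2. Of 18 long genes of ion channels, receptors and synapse 4 (22.2%) held a member, against 64.2% of all long genes. They held 9 members, and the list had 8.27 per Mb over 1.09 Mb, with 14.7, 12.0 and 6.44 in the replicates. The cAMP phosphodiesterase gene dnc held 6 of the 9, and the channel genes eag, para and SK held 1 each, of which that of SK was found in all 3 replicates. The Shaker potassium channel gene Sh held none in any list. Each of the 3 replicates placed both lists below the 50.7 to 57.7 per Mb of all long genes, while the lists were not tested and share genes, and 118 of the 307 long genes are in a list.

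**Figure D3:**
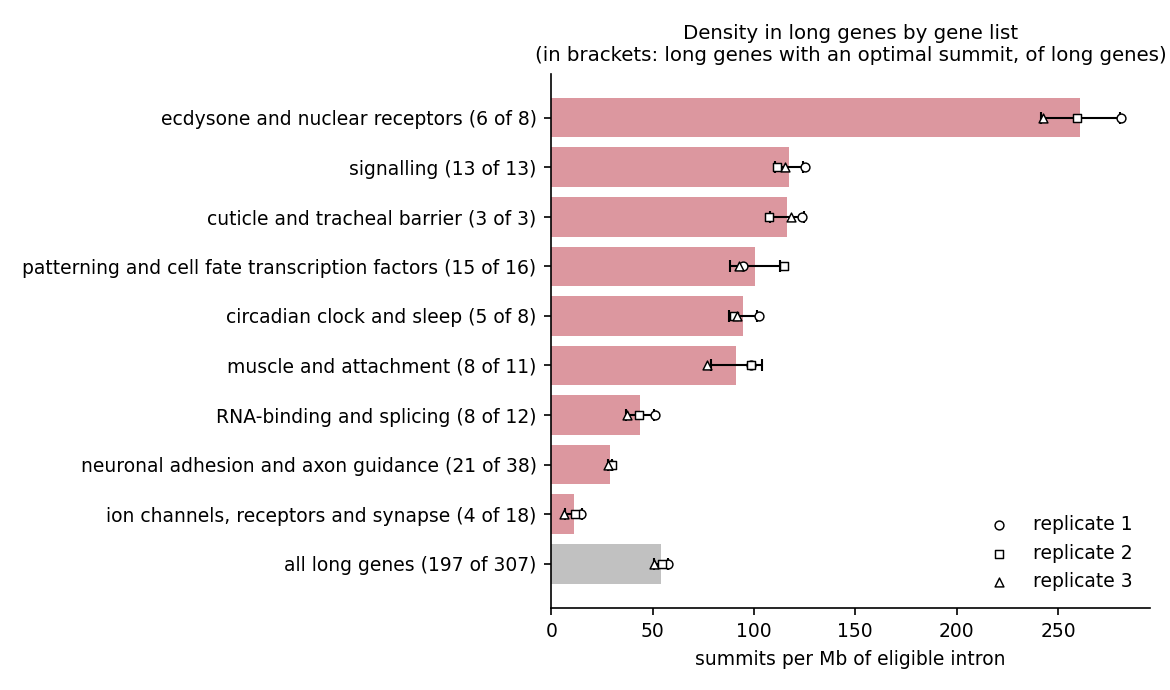
Bars are the mean density of distal intronic summits, per Mb of eligible intron, over the 3 replicates' own lists in the long genes of each gene list, with SD as error bars and replicates as symbols; brackets give long genes with a member in the optimal list, of long genes. Ecdysone and nuclear receptor genes stand at 242 to 281 per Mb and ion channel, receptor and synapse genes at 6.44 to 14.7, against 50.7 to 57.7 for all long genes.

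Genes without a member held 9.20 Mb of eligible intron, 37.9% of the total. Of the 110, 62 had no such summit in any replicate list either, and 7 of the 307 had no eligible intron, since another gene as long or longer covered them. The longest without a member was Myo81F, which encodes a myosin and lies in heterochromatin near the centromere, with 1957 kb of eligible intron and 1 summit, in replicate 1. The others among the 5 longest were bru3, which encodes an RNA-binding protein, with 263 kb, l(3)80Fg with 211 kb, Rbp6 with 161 kb, and CG15465, whose extent rg shares. The span of CG15465 was not empty: it held 7 members, counted for rg, of which 2 were found in all 3 replicates. The density was lower in longer genes, at 85.3 members per Mb in genes of 50 to 75 kb, 77.8 in 75 to 100 kb, 48.4 in 100 to 150 kb and 17.7 in genes of 150 kb or longer. Without Myo81F the last class had 25.1 per Mb, and 28.8, 24.9 and 19.7 in the replicates. Genes of this class still differed widely. Pzl held 1 member in 702 kb of eligible intron, lovit 1 in 430 kb, CG17684 1 in 390 kb and DIP-lambda 2 in 376 kb. By contrast kirre held 29 in 318 kb and pum 17 in 152 kb. The value of the class thus rests in large part on a few very long genes with few members. Whether gene length itself, location on the arm or read mapping in repeats bears on these densities was not tested. Between genes just below and above 50 kb, NetA, of 49917 bp, had 4 distal intronic summits and Octalpha2R, of 49945 bp, 0, while Sytbeta, of 50283 bp, had 0 and ab, of 50403 bp, 2.

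Long-gene introns held fewer summits per Mb than introns of shorter genes. In the optimal list the density was 56.3 per Mb over 24.2 Mb of long-gene intron, against 128 per Mb over 23.9 Mb of shorter-gene intron under the same rule. Outside protein-coding genes it was 41.1 per Mb and over all sequence 101 per Mb. In replicates 1, 2 and 3 long-gene introns had 57.7, 54.5 and 50.7 per Mb (54.3 ± 3.51, SD, n = 3), against 132, 119 and 119 in shorter-gene introns (124 ± 7.66). The groups did not overlap, and the difference was −69.4 ± 5.17 per Mb. An exact two-sided sign-flip permutation test over the 3 replicates gave p = 0.25, the smallest that this test can give with 3 replicates, so no comparison made with it here can pass 0.05. Outside genes the replicates had 42.2, 42.4 and 36.7 per Mb, below long-gene introns in all 3 by 13.8 ± 1.69 (exact permutation p = 0.25). The replicates' counts of long-gene intronic summits were 1398, 1321 and 1228.

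The distance from a TSS moved with this difference. Members lay at a median of 6693 bp from the nearest TSS, against 3092 bp for summits in shorter-gene introns. At 1 to 2 kb from a TSS long-gene introns held 127 members per Mb, against 198 in shorter-gene introns, and at 5 to 10 kb 77.0 against 105. At 20 to 50 kb the densities were 36.1 and 34.1 per Mb. The mean difference over replicates was −69.3 ± 1.37 per Mb at 1 to 2 kb, −34.1 ± 9.31 at 2 to 5 kb, −24.9 ± 6.21 at 5 to 10 kb and −16.4 ± 2.43 at 10 to 20 kb, lower in long genes in all 3 replicates in each (exact permutation p = 0.25 each). At 20 to 50 kb it was 2.34 ± 5.65, higher in 2 of 3 replicates (exact permutation p = 0.75). Farther than 50 kb lay 22 members in 10 genes, 8 of them in hth, at 7.00 per Mb without the sequence of Myo81F and 4.35 with it. The members nearest the 1 kb limit were those of SNF4Agamma at 1010 bp, with signal 305, and Svil at 1014 bp, with signal 857. Just within 1 kb, and so left out, were summits in Svil at 994 bp, with signal 211, and in Eip75B at 998 bp, with signal 1370.

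**Figure D4:**
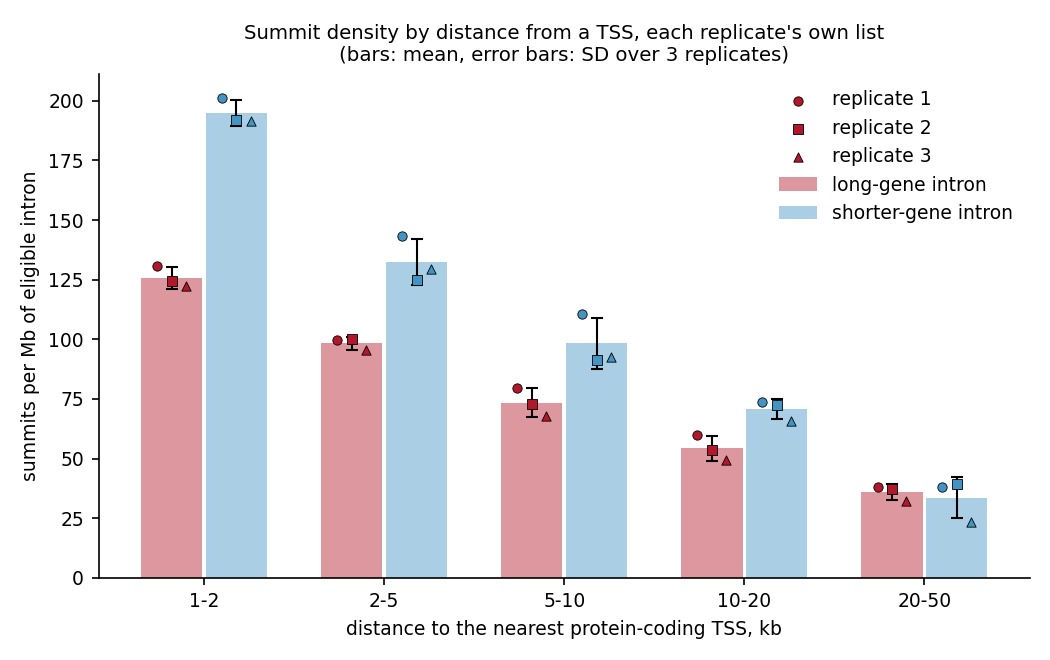
Bars are the mean number of summits per Mb of eligible intron over the 3 replicates' lists, by distance to the nearest protein-coding TSS in kb, for long-gene introns (red) and shorter-gene introns (blue), with SD as error bars and replicates as symbols. Long-gene introns are lower in all 3 replicates in every bin up to 20 kb, and at 20 to 50 kb the replicates of both groups overlap.

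Members lay more often toward the 5′ end of their gene, with 812 of the 1366 (59.4%) closer to the 5′ end of the host than to its 3′ end, against 52.2% of the eligible sequence. In the intron nearest the 5′ end lay 289 members, 21.2%, against 14.2% of the eligible sequence, and in the longest intron of the host 639, 46.8% against 41.1%. The nearest TSS belonged to another gene for 372 members (27.2%), with 162 such neighbours. Of these 372, 50.0% had the wider form and 47.0% were found in all 3 replicates, against 42.7% and 55.7% of the 994 members nearest a TSS of their host. Over all summits of the optimal list these shares were 35.8% and 60.6%. Within 1 kb of another member lay 384. Peaks had a median width of 329.5 bp, and 5 members lay in annotated transposons.

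The PAR bZIP site was more frequent at the members than beside them. It lay within 50 bp of 212 summits, 15.5% (95% Wilson interval 13.7 to 17.5), against 0.732% of equal windows whose centre was 300 bp to the side, a ratio of 21.2. Over all summits the shares were 12.0% and 0.854%, and over summits of shorter-gene introns 13.8% and 0.750%. In replicates 1, 2 and 3 long-gene introns had it at 18.7%, 7.57% and 8.14% (11.5% ± 6.25, SD, n = 3), against 16.3%, 6.95% and 7.42% in shorter-gene introns. Beside the summits of long-gene introns the replicates had it at 0.930%, 0.757% and 0.733%. Replicate 1 stood apart at the summits in both groups, and without it 9.93% of the members found in both others had the site. The difference was 1.22 ± 0.959 percentage points, higher in long genes in all 3 replicates (exact permutation p = 0.25). It was not higher in all 3 with a gene length minimum of 30 kb or in the strongest 50% of each list.

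The wider bZIP form was at 610 members, 44.7% (95% Wilson interval 42.0 to 47.3), against 5.42% in windows 300 bp away. Its background was 35.8% of all summits, with 4.77% beside them, and it was at 44.8% in shorter-gene introns and 26.1% near a TSS. In replicates 1, 2 and 3 the share was 50.9%, 28.3% and 28.5% in long-gene introns, against 48.8%, 30.8% and 29.9% in shorter-gene introns. The difference was −0.604 ± 2.34 percentage points, higher in long genes in 1 of 3 replicates (exact permutation p = 0.75), within the spread between replicates. Near a TSS the replicates had 29.7%, 19.1% and 18.1%, lower than in long-gene introns in all 3, with a difference of 13.6 ± 6.58 points (exact permutation p = 0.25). The commonest words were TTACATAA at 171 members (12.5%, against 9.53% of all summits), TTATATAA at 156 (11.4% against 8.58%) and TTATGCAA at 100 (7.32% against 6.40%), in the same order as over the whole list. TTACGTAA was at 41 members and 1 flanking window, whereas TTGTACAA was at 3 members and 4 flanking windows. Where a word was present, its centre lay at a median of 14.5 bp from the summit, within 20 bp for 441 of the 610, and 34 members held more than 1 word.

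**Figure D5:**
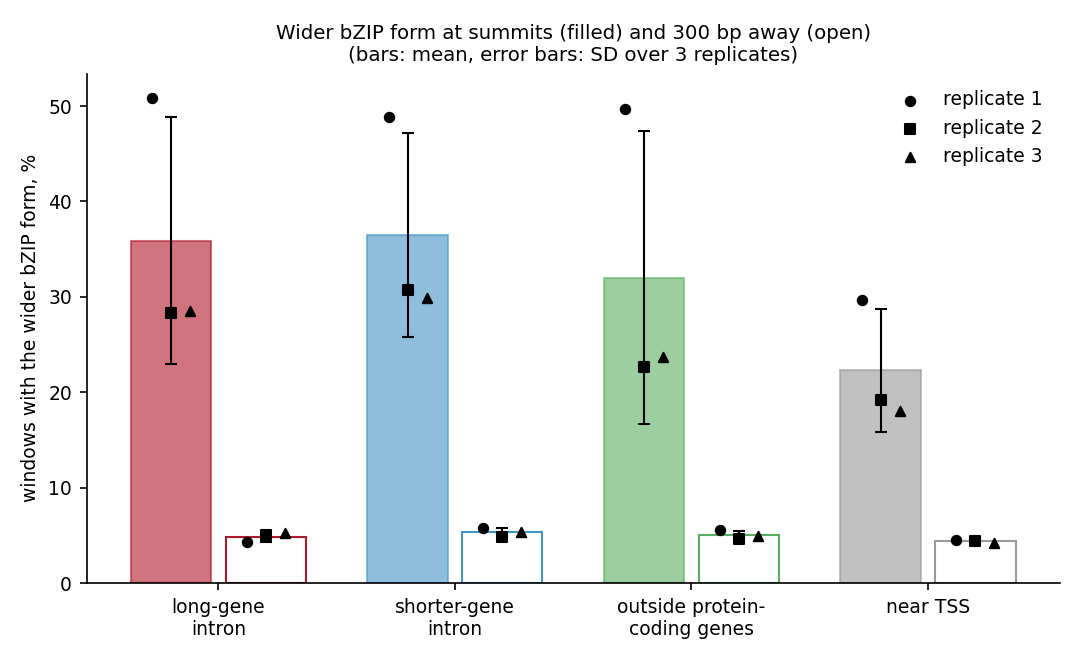
Filled bars are the mean share of summits with the wider bZIP form within 50 bp, and open bars the share of windows centred 300 bp away, over the 3 replicates' lists for each location, with SD as error bars and replicates as symbols. Replicate 1 is at 50.9% in long-gene introns and replicates 2 and 3 at 28.3% and 28.5%, all above the 4.29% to 5.29% beside the summits.

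How the share followed signal differed between replicates. Over 5 equal groups of the members by optimal signal, strongest group to weakest, the wider form was at 56.9%, 49.1%, 45.4%, 40.7% and 31.1%. In replicate 1 such groups of its own long-gene summits had 71.4%, 59.6%, 51.1%, 37.6% and 34.4%. In replicate 2 they had 27.9%, 28.8%, 29.2%, 29.9% and 25.8%, with no such order, and in replicate 3 32.5%, 32.9%, 26.8%, 24.5% and 25.7%. The optimal signal of the members followed replicate 1 most closely, with a Spearman's correlation across members of 0.90, against 0.57 for replicate 2 and 0.70 for replicate 3. Between replicates 1 and 2 it was 0.30 over 1244 members.

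The share found in all 3 replicates was smaller among the members than over the whole list. Of the 1366, 729 were found in all 3, or 53.4% (95% Wilson interval 50.7 to 56.0), against 60.6% of all summits. The shares were 56.2% in shorter-gene introns, 50.2% outside genes and 67.9% near a TSS. Replicates 1, 2 and 3 held 1217, 967 and 984 of the members, or 89.1%, 70.8% and 72.0%, and 8 members were in none. These intervals cover counting of peaks alone, and the optimal list and the replicate lists rest on the same libraries. The wider form was at 79.8% of the 213 members found in replicate 1 alone, against 78.4% of all summits with that pattern, and at 38.0% of the 729 found in all 3, against 31.7%. It was at 20.8% of the 77 found in replicates 2 and 3 but not 1, against 7.98% of all summits with that pattern. The PAR site was at 0 of those 77, which allows a share of up to 3.90%. Over all summits with that pattern it was at 5 of 877, or 0.570%, so the count of 0 was near the background.

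Words outside the bZIP form had ratios of members to flanking windows from 0.712 to 3.00. The C/EBP word TTGCGCAA, itself of the wider form, was at 1.32% of members and 0.146% of flanking windows, against 1.08% and 0.155% over all summits. A GATA word, AGATAAG or TGATAAG, was at 4.76% and 3.22%, against 5.03% and 3.52% over all summits. The E-box CAGCTG was at 3.07% and 4.32%, against 5.68% and 4.32% over all summits, and CATATG was at 4.39% and 3.07%, against 3.57% and 3.33%. The E-box CACGTG was at 15 members and 6 flanking windows, or 1.10% and 0.439%, against 1.37% and 1.48% over all summits. The DRE word TATCGATA of housekeeping promoters was at 0.293% of members, or 4 summits, and 0.146% of flanking windows. Over all summits the shares were 1.91% and 0.589%. The word was at 3.54% of summits near a TSS, 0.163% in shorter-gene introns and 0.200% outside genes. The MEF2 and Tinman words of muscle regulators, searched as TATTTATA, TAAAAATA and their complements and as TCAAGTG, were at 3.66% and 2.20% of members and at 4.69% and 2.93% of flanking windows. Over all summits they were at 4.57% and 1.71%. For the AP-1 site, TGACTCA or TGAGTCA, the shares were 1.17% and 1.10%, against 1.05% and 1.02% over all summits. The ratio of 3.00 was that of the CRE, TGACGTCA, which was at 6 members and 2 flanking windows, and these ratios were not tested.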

How the data were processed

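Anti-GFP ChIP-seq peak lists of 3 biological replicates of Pdp1-eGFP embryos were used, with replicate numbers from the labels, which give no date or run. Per the deposited file records, peaks were called by the authors against a control alignment, as relaxed lists of 30000 lines per replicate, and reduced to an optimal list by IDR, which keeps peaks that replicates rank alike. For the aligner, the peak caller and IDR no version or setting is given here by the sources. The authors' deposited signal value per peak has a scale that differs between lists and was used to rank lines within a list. Depth is unknown. The lists on the older assembly and from pooled replicates were not used here.

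The annotation was Ensembl release 115 (BDGP 6.54) with transposon records not counted as exons or genes, and sequence was the Release 6 genome from RefSeq. No interval passed an arm end. Eligible intron is the sequence on the 6 arms at which a summit would meet the rule. Each replicate entered with as many of its strongest lines as the optimal list holds. Motifs were searched within 50 bp of the summit and in an equal window 300 bp away, on alternating sides. Differences between locations were tested by an exact sign-flip permutation over the 3 replicates, and intervals are 95% Wilson. The 3 replicates are samples of 1 fly line. Work was done in Python 3.11.15 with numpy 2.4.6, pandas 2.3.3, scipy 1.17.1 and matplotlib 3.10.9. The location rule, summit matching, motif search and tests were tested on simulated data.

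Genes were named by rule: the hosts of the 20 strongest members found in all 3 replicates (summits within 1 kb counted once), the 10 genes with most members, the 5 densest with 5 or more, up to 4 per gene list, the 5 longest without a member, Pdp1, and the genes and summits next to the thresholds. Genes of a list without a member, the remaining ecdysone genes and the overlapping genes were named after their values were seen. The members, lists, motifs and alternatives were chosen with earlier results of these data known. Alternatives changed the gene length minimum, the TSS distance, the peak list, the motif window, matching, lines per replicate, the exons and TSSs kept clear of, the Pdp1 locus and the replicates used. Counting transposon records as exons and leaving out Myo81F were chosen after seeing the data. One gene that the rule names is not reported here.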

Additional observations from a re-analysis of the deposited data

How the results depend on the processing

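The number of members was 2251 with a gene length minimum of 30 kb, 405 with 100 kb, 620 in the strongest 50% of the optimal list and 197 with the strongest member of each gene alone, and 806 to 890 when a replicate was left out, which asks that a summit be found in both others. It was 1191 to 1467 under the other 8 alternatives. Summits per Mb of long-gene intron were 66.9 with 30 kb, 32.2 with 100 kb, 52.1 with TSSs over 2 kb away, 25.6 in the strongest 50%, 60.9 with transposon records counted as exons, 61.3 without Myo81F and 33.2 to 36.7 without a replicate. The share found in all 3 replicates was 81.5% in the strongest 50%, 73.6% for the strongest member of each gene, 49.1% within 100 bp, 57.8% within 500 bp, 56.8% by overlap of intervals, 21.1% with 50% as many lines per replicate, 85.1% with whole lists and 59.0% to 65.2% without a replicate. For the strongest member of each gene the PAR site was at 27.4% and the wider form at 61.9%. The difference in wider-form share from shorter-gene introns, −0.604 points, turned to 1.34 with 100 kb, 0.117 with TSSs over 500 bp away and 0.515 with whole lists. Without a replicate it ran between −1.92 and 0.318, the highest without replicate 2, and the cause was not tested. The difference in PAR site share stayed above 0 (0.209 to 2.08 points) and that in summits per Mb below 0 (−165 to −29.7) under every alternative run. The PAR site difference was no longer above 0 in all 3 replicates with 30 kb (exact permutation p = 0.75), or in the strongest 50% and with 50% as many lines (exact permutation p = 1.0 in both). Without a replicate the PAR site was at 9.93% to 12.2% of members, the lowest without replicate 1. No paired comparison between groups of samples was possible, because the series held 1 group and so no replicate block between groups. The tests between locations were paired by replicate. The sign-flip test could not pass with 3 replicates, and unknown depth limits what a missing summit can mean.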

Other observations

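Members stood on every chromosome arm. Per Mb of eligible intron there were 79.6 on 2L (273 members), 61.5 on X (301), 57.6 on 3L (291), 48.3 on 2R and 44.7 on 3R (299), whose sequence includes the intron of Myo81F. The lists of replicates 1, 2 and 3 held 279, 260 and 251 such summits on 2L, against 306, 291 and 265 on 3R, and 303, 293 and 249 on X. Chromosome 4 held 1 member, and 1 in each replicate. The wider bZIP form was at 48.5% of the members on X and 47.3% of those on 2L, against 40.8% on 3R.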
